A study of Brassica napus with 33 samples.

Results

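Small RNA (sRNA) abundance was compared between the parents of a Brassica napus (oilseed rape) hybrid in ovules collected 15 days after pollination (OS15). The comparison used the sRNA clusters with a position on the Express617 assembly, which are stretches of the genome where sRNA reads pile up. These were 91060 of the 101261 entries counted, and 90725 of them had at least 1 read in the 6 libraries compared. The remaining entries carry a read sequence in place of a position and did not enter the tests.

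Express617 is a homozygous winter-type line and the maternal parent of the hybrid. G3D001 is a homozygous semi-winter, semi-synthetic line and the paternal parent. Both were selfed by hand in 1 field season, and each parent had 3 libraries out of the 33 of the series, which also holds leaves, ovules at 30 days (OS30), the selfed F1 and the F0, the ovules of Express617 pollinated by G3D001. Every library pooled ovules from different plants, so the values are averages over embryo, endosperm and seed coat together, and the coat is maternal tissue. Fewer cells of a type and less RNA per cell cannot be told apart in such pools. The labels name no treatment. The clusters carry no gene names and no read lengths, so cell types could not be checked against markers. Reads of both lines were aligned to the assembly of Express617 itself. Sequence that G3D001 lacks or carries in another form therefore lowers its counts in the same way as lower expression, and these cannot be told apart.

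Most plant sRNAs of ovules and young seeds are small interfering RNAs that are made from double-stranded precursors of transposons and other repeats. They guide DNA methylation to matching sequences through the RNA-directed DNA methylation pathway. In Brassica and its relatives, a limited set of loci is known to yield a large part of the siRNA of ovules and endosperm, and siRNA of seeds is known to depend strongly on the maternal genome. Clusters can also hold microRNAs, which are cut from hairpin transcripts and act on messenger RNAs.

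The reads on clusters numbered 14456518 to 18575920 in the Express617 libraries and 13973699 to 16375941 in the G3D001 libraries. Replicates differed by more than counting error, with chi-squared per degree of freedom of 4.97 to 9.69 between Express617 replicates and 31.1, 43.6 and 41.3 between G3D001 replicates 1 and 2, 1 and 3, and 2 and 3. By this measure both G3D001 pairs with replicate 3 were the highest. The 10 largest clusters held 18.5% of the reads of replicate 3, against 8.59% and 10.9% in replicates 1 and 2. By correlation, replicate 2 stood apart. Across the 15536 clusters with a mean of at least 20 reads, its log2(CPM + 1) correlated with replicates 1 and 3 at Pearson's r of 0.932 and 0.931, whereas replicates 1 and 3 correlated at 0.983 and the Express617 replicates at 0.987 to 0.990. CPM are read counts scaled to one library size, with TMM (trimmed mean of M-values) factors taken over the libraries of a stage. Results are therefore given with and without G3D001 replicate 2.

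Express617 and G3D001 differed in 15581 of the 90725 clusters tested, or 17.2%, at an adjusted p under 0.05 in edgeR's quasi-likelihood test. Of these, 8626 (9.51% of those tested) were higher in Express617 and 6955 (7.67%) were higher in G3D001. Without G3D001 replicate 2, 18958 of 90561 clusters (20.9%) differed, with 10538 (11.6%) higher in Express617 and 8420 (9.3%) higher in G3D001. Both sets shared 14597 clusters, and 14594 of these had the same direction. Leaving out replicate 2 added 4361 clusters and removed 984. DESeq2 called 10229 clusters with all 6 libraries and 10468 without replicate 2. Leaving out any other single library lowered the edgeR count, to between 12043 and 12998. Without replicate 2, the p-values of edgeR became far smaller, for example an adjusted p of 1.31e-260 instead of 1.45e-21 at Cluster_36731 on C02. The 4361 added clusters rest on that fit. They include some whose groups overlap, such as Cluster_70555 on C07, and are no count of differences hidden by replicate 2.

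The differences called were large. Clusters higher in Express617 had a median absolute log2 fold change of 2.69, and 1321 of them passed 5. Clusters higher in G3D001 had a median of 2.26, and 873 passed 5. The median cluster had 11 reads per library in the former set and 18 in the latter, and at such counts mainly large differences can pass. Among called clusters with a mean of at least 20 reads, the median was 1.67 to 2.66 across classes of cluster length. The CPM of the parents did not overlap in 14949 of the 15581 clusters called, against 29112 (32.1%) of all clusters tested. Among the clusters with a mean of at least 20 reads, 6034 of 15536 (38.8%) were called. Clusters called higher in Express617 held 24.9% to 25.3% of the reads in Express617 libraries and 6.39%, 8.81% and 7.56% in G3D001 replicates 1, 2 and 3. Clusters called higher in G3D001 held 10.2% to 11.2% of the reads in Express617 and 31.6%, 26.0% and 27.2% in G3D001 replicates 1, 2 and 3. In both sets, the value of G3D001 replicate 2 was the one nearest to Express617.

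The loci with the smallest p in each direction were taken from different chromosomes. Their differences are fitted log2 ratios of Express617 to G3D001. Cluster_13376 on A04, from 20137111 to 20138160, had 2576, 3063 and 2901 CPM in Express617, against 1.5, 2.99 and 1.53 CPM in G3D001. The difference was 10.49 on the log2 scale (SE 0.30, edgeR adjusted p = 1.45e-21), or 10.88 without G3D001 replicate 2. This was a locus of high output in one parent with fewer than 50 reads in each library of the other. Cluster_36731 on C02, from 1593457 to 1594657, had 2285, 2427 and 2155 CPM in Express617, against 5.90, 6.41 and 7.57 CPM in G3D001. The difference was 8.44 on the log2 scale (SE 0.24, edgeR adjusted p = 1.45e-21). Here G3D001 replicate 2 lay between the other replicates of its group.

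Cluster_7854 on A03, from 6661731 to 6664504, was longer, with 2774 bp. It had 1069, 876 and 894 CPM in Express617, against 0.828, 0.622 and 0.732 CPM in G3D001, and differed by 10.34 on the log2 scale (SE 0.30, edgeR adjusted p = 1.45e-21). Cluster_55664 on C05, Cluster_15253 on A05 and Cluster_3646 on A02 completed this group with log2 fold changes of 9.88, 9.91 and 9.82. The 6 loci had 876 to 3554 CPM in the Express617 libraries and 0.622 to 7.57 CPM in the G3D001 libraries. None of them moved by more than 0.4 on the log2 scale when G3D001 replicate 2 was left out.

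In the other direction, Cluster_4688 on A02, from 12509688 to 12514967, had 0.411, 0.481 and 0.311 CPM in Express617, against 1024, 757 and 1018 CPM in G3D001. The difference was -11.16 on the log2 scale (SE 0.32, edgeR adjusted p = 1.45e-21). Cluster_39464 on C02, from 35554377 to 35555504, had 1.12, 1.37 and 1.3 CPM in Express617, against 954, 901 and 911 CPM in G3D001, a difference of -9.50 on the log2 scale (SE 0.28, edgeR adjusted p = 2.97e-21). It lies on the chromosome where most calls went the other way. Cluster_84610, on an unplaced scaffold assigned to C07 from 257904 to 258469, had 2, 3 and 0 reads in Express617, against 12017, 8273 and 8703 reads in G3D001.

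Cluster_9520 on A03, from 23157684 to 23158023, had 0, 0 and 1 read in Express617, against 717, 253 and 503 CPM in G3D001. Cluster_44805 on C03, from 27147803 to 27148098, had 0, 1 and 1 read in Express617, against 316, 216 and 459 CPM in G3D001. Replicate 2 was the lowest of the G3D001 libraries at both loci, though far above Express617. Cluster_75671 on C08 completed the group, with 0.529 to 1.10 CPM in Express617 and 449 to 607 CPM in G3D001. The locus was assembled in Express617 in each of these cases, since positions refer to that assembly.

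**Figure D1:**
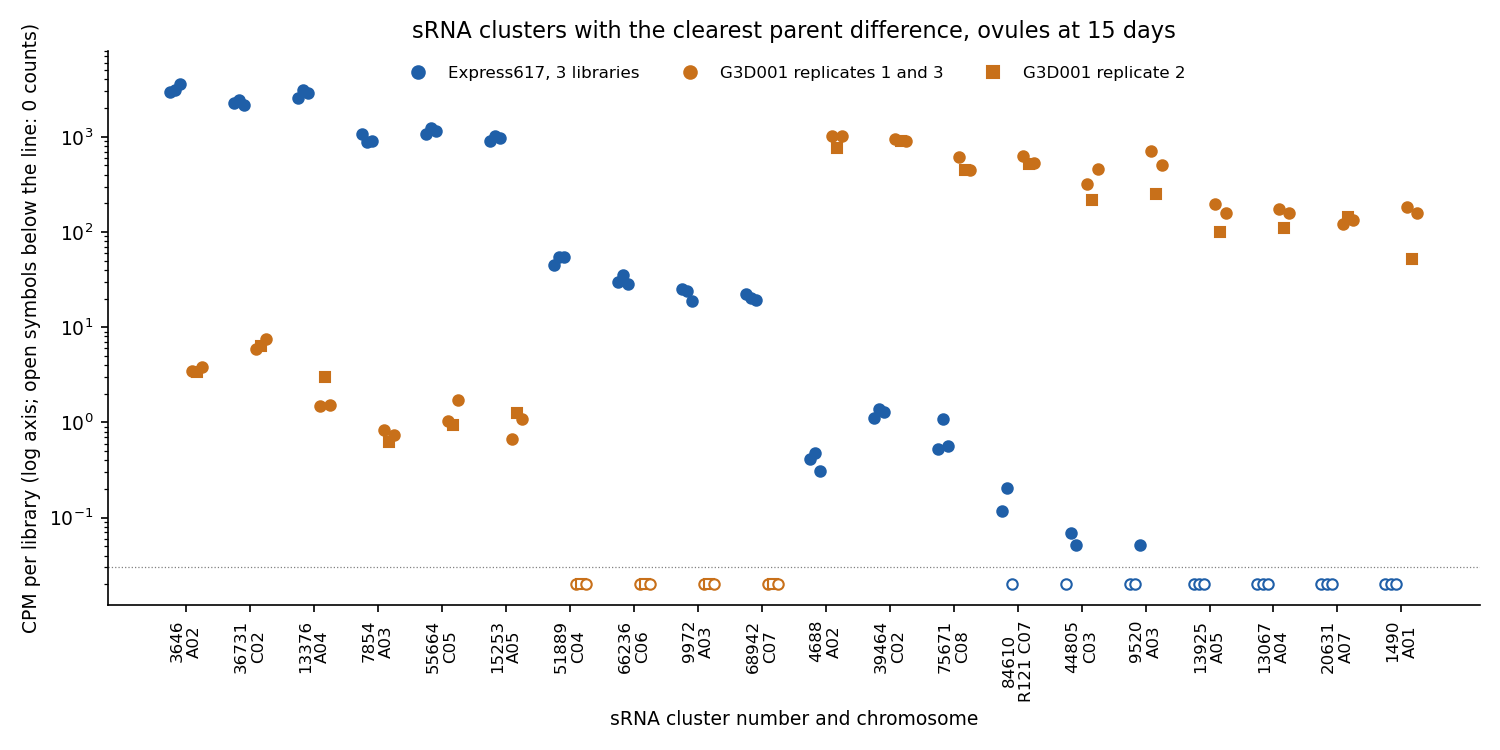
CPM of 20 sRNA clusters in each ovule library at 15 days, on a log axis, with Express617 in blue, G3D001 in orange and G3D001 replicate 2 as a square. For each direction, the 6 clusters with the smallest p and the 4 clusters with the highest level and no read in the lower parent are plotted. The clusters were chosen to have no overlap between the groups. Replicate 2 of G3D001 is lowest in its group at Cluster_1490, with 51.9 CPM against 184 and 157 CPM.

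Clusters with no read in one parent were found in both directions. With at least 1 CPM in the other parent, 186 clusters had 0 reads in all G3D001 libraries and 171 had 0 reads in all Express617 libraries. Among those missing in G3D001, Cluster_51889 on C04, from 28106200 to 28106467, had 766, 794 and 1052 reads in Express617. Its level was at least 886-fold higher in Express617, taking 3 reads over the G3D001 libraries as the limit that a count of 0 allows. Cluster_66236 on C06, from 46534565 to 46535026, had 514, 515 and 545 reads in Express617 and was at least 539.6-fold higher. Cluster_9972 on A03 and Cluster_68942 on C07 were at least 390.4-fold and 356-fold higher by the same limit.

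The 4 named loci missing in Express617 had higher levels in G3D001 than these had in Express617. Cluster_13925 on A05, from 5168176 to 5169150, had 0 reads in Express617, against 199, 100 and 158 CPM in G3D001, at least 2586-fold lower in Express617. Cluster_13067 on A04 had 174, 110 and 157 CPM in G3D001 and Cluster_20631 on A07 had 123, 144 and 132 CPM, with no read in Express617. Cluster_1490 on A01, from 13589293 to 13589905, had 184, 51.9 and 157 CPM in G3D001, so that replicate 2 was well below the other libraries of its group. These limits cover counting error only.

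Of the 6 clusters with the most reads, 5 were not called between the parents. Cluster_77054 on C09, from 3185112 to 3185959, had 19420, 31360 and 43260 CPM in Express617, against 4386, 11730 and 55900 CPM in G3D001. The groups overlapped, and the difference was 0.40 on the log2 scale (SE 0.41, edgeR adjusted p = 0.598), ranging from -0.11 to 1.98 with single libraries left out. It was called without G3D001 replicate 3 (1.98, edgeR adjusted p = 5.95e-09) and with the replicate number as a block (1.10, edgeR adjusted p = 1.714e-05). Cluster_75069 on C08 and Cluster_70434 on C07 also overlapped, with log2 fold changes of 0.10 (adjusted p = 0.755) and 0.02 (adjusted p = 0.933) from edgeR. Cluster_73572 on C08, from 25991328 to 25991914, was the one that passed the test. It had 10990, 18930 and 23050 CPM in Express617, against 1210, 3501 and 15290 CPM in G3D001, a difference of 1.42 on the log2 scale (SE 0.42, edgeR adjusted p = 0.0151). Its groups overlapped, and the call was lost with DESeq2 (adjusted p = 0.322), with a minimum of 10 reads in 3 libraries (edgeR adjusted p = 0.139) and without Express617 replicate 2 (adjusted p = 0.0678) or 3 (adjusted p = 0.0653) in edgeR. At Cluster_77054, Cluster_75069 and Cluster_73572, though not at Cluster_70434, the CPM rose from replicate 1 to 2 to 3 in both parents. A fit without the block counts such a shared rise as spread within the groups.

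Cluster_70555 on C07 and Cluster_40653 on C02 were the other abundant clusters. Cluster_70555 had 14200, 18190 and 19860 CPM in Express617, against 5123, 9987 and 22430 CPM in G3D001. The ratio of its reads to those of Cluster_40653 was 1.10 to 1.11 in Express617 and 1.10 in the G3D001 libraries. Counts of reads that fit several places can be split between near-identical copies, so the levels of this pair are uncertain on their own. Neither was called with all 6 libraries, at edgeR adjusted p of 0.211 and 0.216. Each gained a call in 3 alternatives and kept its result in 10. The gains included the fit without G3D001 replicate 3, at 1.22 on the log2 scale. They also included the fit without G3D001 replicate 2, at 0.34 (edgeR adjusted p = 0.0386 and 0.0416). There, the remaining G3D001 libraries of Cluster_70555, at 5123 and 22430 CPM, lay on either side of all Express617 libraries. Those p-values thus do not reflect the spread between libraries. At both clusters the CPM rose from replicate 1 to 2 to 3 in both parents.

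Some clusters near the threshold were called or not depending on the libraries used. Cluster_31216 on A10, from 11928693 to 11929321, had 72.8, 93.7 and 82.8 CPM in Express617, against 93.4, 232 and 111 CPM in G3D001. The fitted difference of -0.79 on the log2 scale (edgeR adjusted p = 0.0449) became -0.29 (adjusted p = 0.334) without that library, which was the highest of all 6. Cluster_71908 on C08 was lost in the same way, with a log2 fold change of 0.86 (adjusted p = 0.0447) with all libraries and 0.59 (adjusted p = 0.0695) without it, both from edgeR. Over all alternatives, the call was lost in 7 of 13 for Cluster_31216 and in 6 of 13 for Cluster_71908. Cluster_60423 on C05 was gained, with 3870, 4171 and 3770 CPM in Express617, against 5870, 4522 and 4956 CPM in G3D001. It had an adjusted p of 0.0738 with all libraries and 0.0099 without replicate 2, both from edgeR, and it was called in 5 of 13 alternatives.

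Cluster length was examined next. The percentage called was 21.8% for clusters of up to 100 bp, 19.8% for over 100 to 300 bp, 17.9% for over 300 to 1000 bp, 14.6% for over 1000 to 3000 bp and 14.3% for over 3000 bp. The decline with length held without G3D001 replicate 2, from 25.2% in the shortest class to 17.8% in the longest. It did not hold among clusters with a mean of at least 20 reads, of which 35.5%, 39.0%, 42.7%, 33.8% and 33.8% were called in the same order of lengths. At over 1000 reads on average, the middle classes were called most, with 50.2% of 558 clusters of over 300 to 1000 bp and 48.2% of 541 clusters of over 1000 to 3000 bp. The shortest class had 24 such clusters, of which 5 were called.

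Direction also varied with length. Of the clusters called, 61.2% of those of over 100 to 300 bp were higher in Express617, against 36.2% of those of over 3000 bp. These were 61.6% and 36.9% without G3D001 replicate 2. Among clusters with a mean of at least 20 reads, the shares were 48.9% and 35.3%. The longest cluster higher in G3D001 that met all criteria was Cluster_34714 on C01, from 24087550 to 24098634. It had 162, 207 and 202 CPM in Express617, against 1155, 954 and 1099 CPM in G3D001, a difference of -2.48 on the log2 scale (SE 0.20, edgeR adjusted p = 3.28e-11).

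The longest such cluster higher in Express617 was Cluster_75704 on C08, with 8112 bp from 42675315 to 42683426. It had 86.1, 81.4 and 73.7 CPM in Express617, against 0.776, 28.9 and 0.610 CPM in G3D001. Replicate 2 alone of the G3D001 libraries was within 3-fold of Express617. The difference was 3.02 on the log2 scale (SE 0.70, edgeR adjusted p = 0.0020) with all libraries and 6.84 without replicate 2, and DESeq2 gave an adjusted p of 0.199. The shortest clusters that met the criteria were Cluster_16929 on A06 (28 bp), with 2.95 to 3.43 CPM in Express617 and 0.104 to 0.622 CPM in G3D001, and Cluster_47690 on C03 (21 bp), with 0 reads in Express617 and 54 to 119 reads in G3D001.

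Chromosomes C02 and A02 stood apart, in opposite directions. On C02, 1438 of 4986 clusters (28.8%) were called and 84.6% of these were higher in Express617. On A02, 992 of 4001 clusters (24.8%) were called and 32.9% of these were higher in Express617. The other chromosomes ran from 12.7% called on C09 to 22.7% on A04, with 44.9% to 62.3% of calls higher in Express617. Without G3D001 replicate 2, C02 had 37.4% called and A02 had 29.0%, with 87.4% and 30.1% of calls higher in Express617.

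The level of each library on a chromosome was taken as the median log2 ratio to the Express617 mean over clusters averaging 20 reads or more, minus that over all such clusters. A pseudocount of 0.5 CPM was added before the ratio. On C02 the Express617 libraries were at -0.02, 0.02 and 0.02, and G3D001 replicates 1, 2 and 3 were at -0.79, -0.36 and -0.69. On A02 the Express617 libraries were at 0.02, 0.00 and -0.01, and the G3D001 libraries were at 0.45, 0.31 and 0.56. The groups did not overlap on either chromosome, and replicate 2 was nearest to Express617 on both. Both chromosomes were picked with their values known. C02 held 8.23% to 8.59% of all reads on clusters in Express617 and 3.42%, 5.58% and 5.68% in G3D001. A02 held 4.85% to 5.39% in Express617 and 9.33%, 7.54% and 8.53% in G3D001. A02 and C02 are largely homoeologous, descending from one ancestral chromosome of the Brassica progenitors. The study left both out of its subgenome comparison. It cites earlier work in which G3D001 had all of A02 duplicated and all of C02 deleted. Whether this state of the line underlies the sRNA levels was not tested.

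Libraries of the other stages gave the same directions. In leaves, the G3D001 libraries were at -0.62, -0.67 and -0.57 on C02 and at 0.66, 0.61 and 0.61 on A02, with all Express617 libraries within 0.05 of 0. At OS30 they were at -0.73, -0.40 and -1.21 on C02 and at 0.47, 0.29 and 0.61 on A02. Replicate 2 was nearest to Express617 in both ovule stages. At OS15, the F1 libraries were at -0.23 to -0.20 on C02 and the F0 libraries at -0.01 to 0.05. With A02 and C02 included, 19.9% of the clusters on A chromosomes and 16.1% of those on C chromosomes were called, and 53.7% and 57.7% of these calls were higher in Express617.

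**Figure D2:**
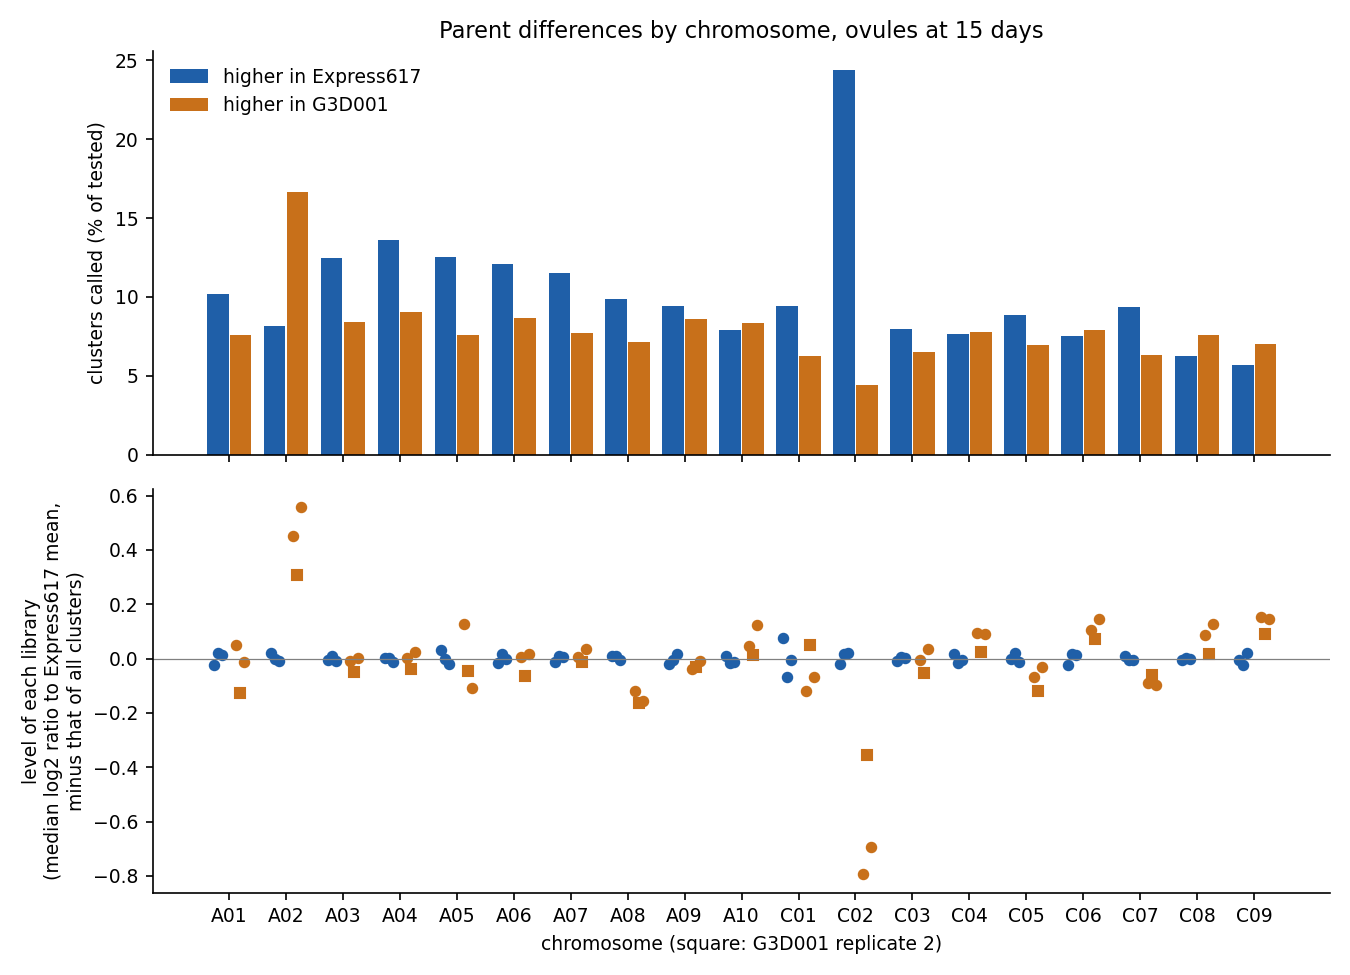
Upper panel, percentage of tested clusters called higher in Express617 (blue) or in G3D001 (orange) on each chromosome at 15 days. Lower panel, level of each library on the chromosome, as a median log2 ratio to Express617 over clusters averaging 20 reads or more, with G3D001 replicate 2 as a square. C02 is low and A02 is high in all G3D001 libraries, with replicate 2 at -0.36 and 0.31.

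Calls of the same direction lay next to each other more often at short range. Of 4158 pairs of neighbouring called clusters up to 10 kb apart, 76.2% had the same direction. This was 59.2% of 8229 pairs over 10 to 100 kb apart and 56.1% of 2241 pairs over 100 kb apart, where the split between the directions alone gives 50.7%. That split is over all chromosomes together, whereas 84.6% of the calls on C02 and 32.9% of those on A02 were higher in Express617. The excess over 50.7% thus includes differences between whole chromosomes. Neighbouring clusters can share a transcript and are not independent.

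Segments were then searched in windows of 500 kb with at least 10 clusters of a mean of at least 20 reads. The value of a window is its median log2 fold change minus the median of all such clusters. Of 605 windows, 47 passed 2-fold, 24 towards Express617 and 23 towards G3D001. Without G3D001 replicate 2, 60 of 605 passed, and 45 were shared. No run of 3 neighbouring windows passed 2-fold in either fit. A run could form only where neighbouring windows all had enough clusters. On C02, for example, no window between 5.5 and 21.5 Mb had enough. With windows of 1 Mb, 3 runs appeared, all on C02 and all higher in Express617. They lay at 1 to 4 Mb, 11 to 14 Mb and 41 to 45 Mb, with median window values of 1.23, 1.17 and 1.49. Without replicate 2, the run at 41 to 45 Mb reached 2.86 and the middle one lay at 9 to 13 Mb.

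A02 and C02 held 19 of the windows past 2-fold. On A02, 41 of 45 windows were below 0 and 11 passed 2-fold, all towards G3D001. On C02, 15 of 19 windows were above 0 and 8 passed 2-fold, all towards Express617. The C02 window from 50 to 50.5 Mb was at -0.79, and none of its 9 called clusters was higher in Express617.

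**Figure D3:**
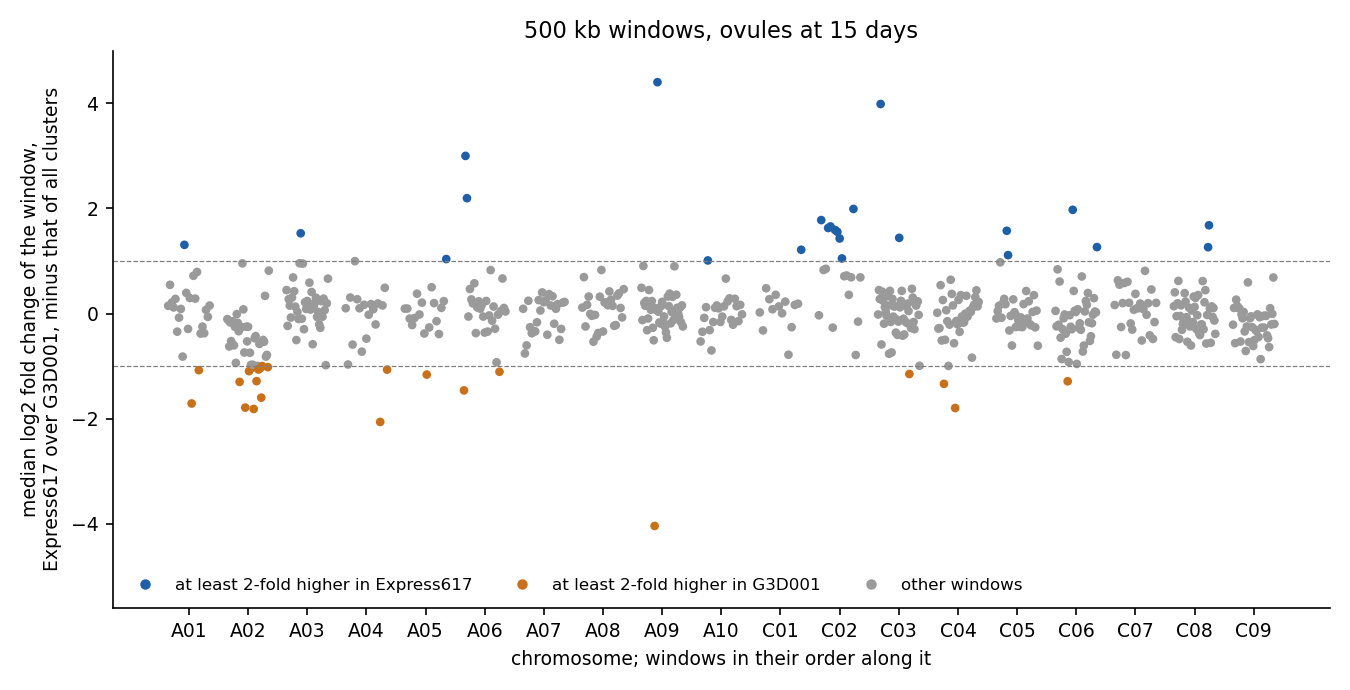
Median log2 fold change (Express617 over G3D001) of 605 windows of 500 kb at 15 days, minus that of all clusters, by chromosome and in their order along it. Dashed lines mark 2-fold. C02 lies mostly above 0 and A02 mostly below, while A09 and C03 have single windows at 4.4, -4.04 and 3.99.

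The window of A09 from 21 to 21.5 Mb had the highest value, 4.4, with 12 clusters of at least 20 reads. The summed level of all its clusters was 157, 165 and 160 CPM in Express617, against 64.1, 70.7 and 66.0 CPM in G3D001. Its leading cluster, meaning the called one with the most reads in the direction of the window, was Cluster_27214. From 21185496 to 21186416, it had 38.3, 43.2 and 38.1 CPM in Express617, against 0.414, 0.187 and 0.183 CPM in G3D001. This cluster, like those of the following windows, was chosen after its values were seen. On the same chromosome, the window from 16.5 to 17 Mb had the lowest value, -4.04, and none of its 20 called clusters was higher in Express617. Its sum was 32.7, 35.9 and 40.9 CPM in Express617, against 397, 290 and 497 CPM in G3D001, and 12 of its 17 clusters of at least 20 reads started within 50 kb. Its leading cluster, Cluster_26839 from 16611313 to 16611893, had 7.70, 9.20 and 9.69 CPM in Express617, against 155, 111 and 181 CPM in G3D001.

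The window of C03 from 5.5 to 6 Mb had a value of 3.99. Of its 39 called clusters, 38 were higher in Express617, and 26 clusters of at least 20 reads started within 50 kb. The summed level was 4400, 5435 and 4555 CPM in Express617, against 747, 751 and 772 CPM in G3D001. Its leading cluster, Cluster_42239 from 5521616 to 5523014, had 1104, 1335 and 1046 CPM in Express617, against 32.3, 28.6 and 32.6 CPM in G3D001. The difference was 5.23 on the log2 scale (SE 0.23, edgeR adjusted p = 1.63e-17). G3D001 replicate 2 did not stand apart in this window.

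On A06, neighbouring windows went in opposite directions. The window from 1 to 1.5 Mb had a value of -1.46, and the windows from 1.5 to 2 Mb and from 2 to 2.5 Mb had 3.0 and 2.2. The value from 2 to 2.5 Mb was 3.62 without G3D001 replicate 2. The sum from 1.5 to 2 Mb was 2377, 2948 and 2768 CPM in Express617, against 18.1, 22.5 and 17.1 CPM in G3D001. From 2 to 2.5 Mb it was 815, 842 and 788 CPM in Express617, against 169, 360 and 152 CPM in G3D001, with replicate 2 nearest to Express617.

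The densest window was that of C05 from 9 to 9.5 Mb, with 117 clusters of at least 20 reads, 51 of them starting within 50 kb. Of its 111 called clusters, 108 were higher in Express617, and its value was 1.57. The sum was 7592, 8641 and 7681 CPM in Express617, against 4194, 3750 and 3828 CPM in G3D001. In leaves it was 29.6 to 38.1 CPM in Express617 and 23.5 to 24.9 CPM in G3D001. At OS30 the order was the opposite, with 908 to 993 CPM in Express617 and 10770 to 11800 CPM in G3D001. Scaling by total reads kept that order, with 1316 to 1468 CPM in Express617 and 3616 to 4324 CPM in G3D001. The leading cluster, Cluster_56199 from 9225200 to 9225721, had 622.5, 683 and 604 CPM in Express617 at OS15, against 426, 420.0 and 428 CPM in G3D001. Its difference of 0.60 on the log2 scale (edgeR adjusted p = 0.0253) was no longer called with total-count scaling or without Express617 replicate 1, 2 or 3 or G3D001 replicate 1 or 3, at 0.52 to 0.60.

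Of the 47 windows past 2-fold at OS15, 37 had at least 5 clusters of a mean of at least 20 reads in leaves. Their value had the same sign in leaves in 30 windows, and 9 of these passed 2-fold there. At OS30 all 47 could be assessed, and 32 had the same sign, with 6 past 2-fold. Windows chosen by their OS15 values tend to have smaller values in other stages through that choice alone. The windows of A09 from 21 to 21.5 Mb and of C03 from 5.5 to 6 Mb had 0.39 and 0.33 in leaves and 1.23 and 0.84 at OS30. Their summed levels at OS30 went the other way with TMM. On A09 they were 277 to 291 CPM in Express617 and 296 to 372 CPM in G3D001. On C03 they were 1517 to 1868 CPM and 2010 to 2578 CPM. Scaling by total reads reversed this, with 395 to 432 CPM in Express617 and 113 to 125 CPM in G3D001 on A09. On C03 it gave 2256 to 2761 CPM and 770 to 866 CPM.

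Segments of C01 and A03 that the study discusses were described whatever their values, with limits set to whole Mb and so wider than the study gives them. The study found them by differential expression of genes, whereas the values here are of sRNA clusters. It reports large deletions on C01 of G3D001, to which it ascribes low expression of the deleted segments. On A03 it found no large rearrangement. Whether either bears on the sRNA values was not tested. On C01 from 40 to 42 Mb, 57 of 176 clusters (32.4%) were called, 48 of them higher in Express617. The median log2 fold change over its 25 clusters of at least 20 reads, relative to all clusters, was 1.96, or 2.81 without G3D001 replicate 2. The levels were 0.19, -0.23 and 0.04 in Express617 and -2.39, -1.81 and -2.12 in G3D001. One of its clusters, Cluster_36410 from 41720850 to 41722604, had 4289, 2782 and 4409 reads in Express617, against 1 read in each G3D001 library. In leaves the summed level of the segment was 141 to 152 CPM in Express617 and 74.2 to 81.2 CPM in G3D001. At OS30 it was 1125 to 1652 CPM in Express617 and 1897 to 1940 CPM in G3D001 with TMM. Scaling by total reads gave the opposite order, with 1663 to 2356 CPM in Express617 and 641 to 726 CPM in G3D001. On A03 from 11 to 19 Mb, 167 of 783 clusters (21.3%) were called, 108 of them higher in Express617, and the relative median was 0.07, or 0.10 without replicate 2. Its summed level was 14240, 15920 and 14730 CPM in Express617, against 18030, 17720 and 17570 CPM in G3D001, so that the groups did not overlap. The study chose them from the same plant material, so they are no independent choice.

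The place of G3D001 replicate 2 between the parents was measured on clusters called without it. Position 0 is the mean of Express617 and position 1 the mean of G3D001 replicates 1 and 3. Over 17736 clusters called without replicate 2 with a difference of 1 or more on the log2 scale, the median position of replicate 2 was 0.77. It was 0.89 over the 9917 clusters higher in Express617 and 0.61 over the 7819 clusters higher in G3D001. Held out in the same way, replicates 1 and 3 each had a median position of 1.0, over 11872 and 12721 clusters, with replicate 2 then part of the G3D001 mean. Over the clusters higher in G3D001 these positions were 0.97 for replicate 1 and 1.04 for replicate 3. The F1 libraries had median positions of 0.48, 0.47 and 0.46, and the F0 libraries of 0.03 each. Replicate 2 was thus nearer to its own group than to Express617, and between it and the F1.

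The position was not even among clusters or along the genome. Of 5631 placed clusters with a mean of at least 20 reads, 441 had a position under 0.25, 2135 from 0.25 to 0.75 and 3055 of 0.75 or more. In 191 windows of 4 Mb, the median position ran from 0.44 on C06 from 16 to 20 Mb to 1.11 on C09 from 44 to 48 Mb, with 12 windows under 0.6 and 35 of 0.9 or more. On C02 it was 0.98 from 0 to 4 Mb, but 0.49 from 40 to 44 Mb, 0.48 from 44 to 48 Mb and 0.48 from 52 to 56 Mb. On A03 as a whole it was 0.92, against 0.67 on A02 and 0.70 on C02.

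**Figure D4:**
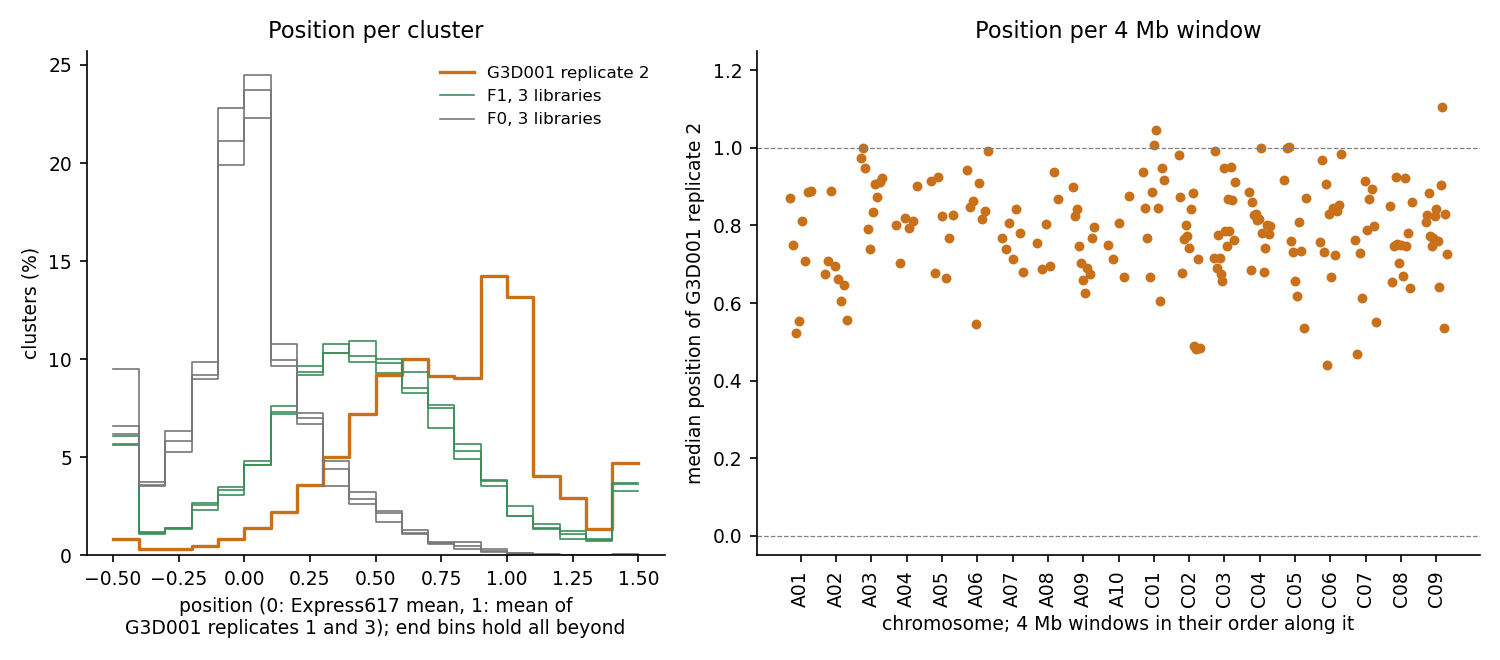
Left, position between Express617 (0) and the mean of G3D001 replicates 1 and 3 (1) of each cluster with a mean of at least 20 reads, as a percentage of clusters, for G3D001 replicate 2, the F1 and the F0 libraries at 15 days. Right, median position of G3D001 replicate 2 in 191 windows of 4 Mb, by chromosome. The curve of replicate 2 peaks near 1 and extends towards the F1, and its windows run from 0.44 to 1.11.

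Replicate 2 also stood apart at loci with no read in the other G3D001 libraries. With at least 1 CPM in Express617, 427 clusters had 0 reads in G3D001 replicates 1 and 3, of which 186 had none in replicate 2 and 113 had at least 0.25 of the Express617 mean there. Leaving out replicate 3 or replicate 1 instead, 245 and 251 clusters had 0 reads in the remaining G3D001 libraries. A smaller set, chosen after the values were seen, had at least 20 CPM in Express617 and at most 2 reads in G3D001 replicates 1 and 3 together. It held 48 clusters. Replicate 2 was under 0.05 of the Express617 mean in 30 of them, from 0.05 to under 0.25 in 5 and at 0.25 or more in 13.

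Cluster_40775 on C02, from 49644015 to 49645885, had 2267, 2061 and 3479 reads in Express617, against 0, 2568 and 0 reads in G3D001. Its neighbour Cluster_40774 had 726, 731 and 980 reads in Express617, against 0, 349 and 0 reads in G3D001. Cluster_12551 on A04, from 11683327 to 11683920, had 371, 359 and 420 reads in Express617, against 1, 407 and 1 reads in G3D001. At these loci replicate 2 carried as many reads as Express617 or a large part of them. At others it carried next to none. Cluster_37643 on C02, from 12285979 to 12287376, had 2042, 1945 and 2882 reads in Express617, against 2, 3 and 0 reads in G3D001. On C02, the clusters of this set up to 13 Mb had at most 3 reads in replicate 2, and the clusters beyond 42 Mb had 349 to 2568 reads in it.

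The 13 clusters with reads in replicate 2 were then followed in the other stages, whose replicates carry the same codes in their titles. In leaves, their reads summed to 13, 2 and 8 in G3D001 replicates 1, 2 and 3, where Express617 had 91.6 to 121.3 CPM, mostly from Cluster_12552 and Cluster_12551. At OS30, they summed to 5602, 6938 and 50 reads in G3D001 replicates 1, 2 and 3. Replicate 1, which had at most 2 reads at each of them at OS15, thus had reads there at OS30, and replicate 3 had few in either stage. Cluster_40775, for example, had 1483, 2150 and 0 reads in the G3D001 libraries at OS30. Replicate 2 was the highest of the G3D001 libraries in CPM at 13 of 13 clusters. The 30 clusters without such reads in replicate 2 summed to 131, 105 and 99 reads at OS30. The cause was not tested.

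**Figure D5:**
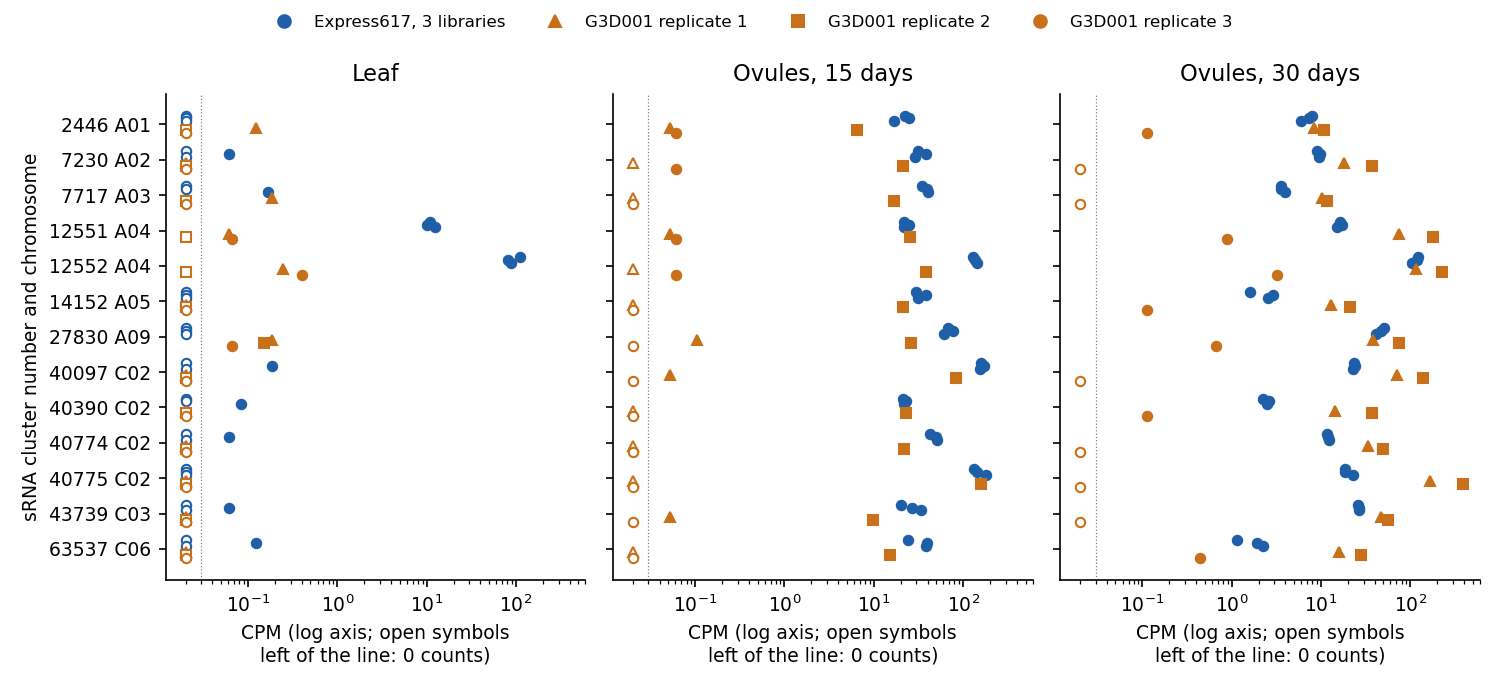
CPM of the 13 clusters with reads in G3D001 replicate 2, at least 20 CPM in Express617 and at most 2 reads in G3D001 replicates 1 and 3 together at 15 days, for each library in leaves and in ovules at 15 and 30 days, on log axes. At 15 days replicate 2 is the only G3D001 library near Express617. At 30 days replicates 1 and 2 both have reads, and replicate 3 has 50 reads over all 13 clusters.

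Whether the parents differed in the same way in other tissues was tested on the difference between stages, in one fit of the 18 parent libraries of leaves, OS15 and OS30. Between OS15 and leaves, the parent difference itself changed in 2228 of 91060 clusters (2.45%) in edgeR, with 994 shifted towards Express617 at OS15 and 1234 towards G3D001. In leaves alone, 13621 of 89272 clusters (15.3%) differed between the parents. Of the clusters called at OS15, 6216 (39.9%) were also called in leaves, which is 45.6% of the leaf calls, and 6038 of these had the same direction. Of the 2076 clusters called at OS15 with a mean of at least 20 reads in both stages, 83.2% had the same sign in leaves. Their median absolute log2 fold change was 1.55 at OS15, and their median in leaves, taken towards the direction at OS15, was 0.92. The clusters were chosen by their OS15 values, which by itself makes the value in leaves smaller. A weaker difference in leaves cannot be read from it.

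Some of the named loci kept their difference in leaves and others were near 0 in the leaves of both parents. Cluster_15253 averaged 590 ± 153 CPM (SD, n = 3) in Express617 leaves and 0.748 ± 0.128 CPM in G3D001 leaves. Cluster_4688 averaged 0.761 ± 0.452 CPM in Express617 leaves and 2486 ± 240 CPM in G3D001 leaves. By contrast, Cluster_13376 averaged 0.104 ± 0.130 CPM in Express617 leaves and 0.0923 ± 0.101 CPM in G3D001 leaves, and the change between stages passed the test (adjusted p = 8.59e-06 from edgeR). Cluster_39464 averaged 1.43 ± 0.462 CPM in Express617 leaves and 0.755 ± 0.259 CPM in G3D001 leaves (adjusted p = 1.89e-14 for the change). Cluster_34714 was high in the leaves of both parents, with 1486 ± 529 CPM in Express617 and 1038 ± 87.3 CPM in G3D001, and its change passed the test (adjusted p = 4.79e-06 from edgeR).

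Between OS15 and OS30, the parent difference changed in 17905 of 91060 clusters (19.7%), with 12597 shifted towards Express617 at OS15. That number rests on the scaling, since it was 47688 with total-count scaling. The TMM factors were 1.43 to 1.49 for Express617 and 0.336 to 0.383 for G3D001 at OS30. At OS30 alone, 50980 of 91049 clusters (56.0%) differed between the parents with TMM. They included 11738 (75.3%) of the clusters called at OS15, 10266 of them in the same direction, and these were 23.0% of the OS30 calls. The fitted log2 fold change at OS30 kept its sign in all of the 20 plotted clusters with the smallest p or no read in one parent.

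In the F1 and F0 at OS15, these loci took different levels. Cluster_13376 averaged 1910 CPM in the F1 and 3156 CPM in the F0, with 2576 to 3063 CPM in Express617. Cluster_4688 averaged 759 CPM in the F1 and 5.21 CPM in the F0, with 0.311 to 0.481 CPM in Express617 and 757 to 1024 CPM in G3D001. At Cluster_4688 the F0 was thus above Express617 and far below G3D001.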

How the data were processed

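Small RNA was extracted from pooled ovules and leaves and sequenced as single-end reads. Per the study's methods, seqtk dropped reads under 18 bp, and ShortStack then aligned the remaining ones to the Express617 assembly, delimited sRNA clusters and counted them. What the authors deposited are raw read counts for every cluster in every library. Genotype and stage come from the sample titles, and 0 columns belonged to no listed sample. Entries without a position held 2.53% to 6.01% of the counts of a parent library at OS15 and were left out.

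Express617 was compared with G3D001 at OS15 in edgeR 4.0.16 (R 4.3.3; glmQLFit and glmQLFTest, TMM factors, genotype as the only term), and p-values were adjusted after Benjamini and Hochberg across every cluster with a count in any of the 6 libraries. The change between stages was fitted on 18 libraries with 1 coefficient per genotype and stage. Fold changes are Express617 over G3D001. Levels and windows (500 kb) used only clusters averaging 20 counts or more, and 3 counts were taken as the limit for a count of 0. Replicates are pools of ovules from different plants. Plots used matplotlib 3.10.9. The fits were tested on simulated data with the same dispersion for all clusters, a fixed fold change and no deviating library. They were thus not tested on replicates as uneven as those of G3D001. Alternatives were RLE factors, total-count scaling, 10 or more counts in at least 3 libraries, replicate number as a block, DESeq2 1.42.0, fits with 9 or 12 libraries, other windows and thresholds, and each library left out. Total-count scaling, DESeq2 and the minimum, each without G3D001 replicate 2, and the positions of replicates 1 and 3 were added after seeing the data.

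Named clusters had a mean of at least 20 counts, no overlap and a call with and without G3D001 replicate 2. They are, in each direction, the 6 with the smallest p and the 4 with the highest level and 0 counts in the other parent (1 per chromosome each), and the longest and the shortest. Outside that pool, the 6 most abundant clusters and the most abundant ones lost or gained without replicate 2 were added. Clusters of single windows and of the set missing in G3D001 replicates 1 and 3 were chosen after their values were seen. The clusters, rules and segments were chosen with earlier results of these data known.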

Additional observations from a re-analysis of the deposited data

Results flagged for a closer look

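The parent difference at OS15 was tested against that of the other stages, and several named loci differed. It changed in 2228 clusters between OS15 and leaves and in 17905 between OS15 and OS30, with an adjusted p under 0.05 in edgeR. Values below are the log2 difference of Express617 over G3D001 at OS15 minus that of the other stage, so a positive value is a shift towards Express617 at OS15. Fitted values of loci without a read in one group depend on the prior count and are no bound, and values against OS30 move with the scaling. Within OS30 the TMM factors were 1.43 to 1.49 in Express617 and 0.336 to 0.383 in G3D001. Such factors lower Express617 relative to G3D001 at OS30 and so move these values towards Express617. Neither their size nor the balance of directions against OS30 is therefore free of the scaling.

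Against leaves, the shift towards Express617 was 9.67 at Cluster_3646, 8.50 at Cluster_36731, 10.41 at Cluster_13376, 13.99 at Cluster_7854, 12.64 at Cluster_55664 and 18.62 at Cluster_66236. It was 12.16 at Cluster_9972, 3.91 at Cluster_16929 and 6.61 at Cluster_27214.

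Against leaves, the shift towards G3D001 was -10.36 at Cluster_39464, -9.49 at Cluster_75671, -15.07 at Cluster_84610, -12.16 at Cluster_44805, -18.70 at Cluster_9520 and -15.32 at Cluster_1490. It was -2.96 at Cluster_34714.

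Against OS30, the shift towards Express617 was 3.16 at Cluster_3646, 4.85 at Cluster_36731, 2.44 at Cluster_13376, 3.62 at Cluster_7854, 2.85 at Cluster_55664 and 1.92 at Cluster_15253. It was 5.58 at Cluster_51889, 6.12 at Cluster_66236, 7.06 at Cluster_9972, 6.5 at Cluster_68942, 3.54 at Cluster_16929 and 2.94 at Cluster_71908. A further group had 2.42 at Cluster_70555, 3.62 at Cluster_31216, 2.83 at Cluster_60423, 2.81 at Cluster_75069, 2.43 at Cluster_40653 and 3.10 at Cluster_70434. The remaining loci had 3.76 at Cluster_26839, 5.53 at Cluster_27214, 1.73 at Cluster_42239 and 3.90 at Cluster_56199.

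Against OS30, the shift towards G3D001 was -3.78 at Cluster_44805, -4.58 at Cluster_9520 and -5.28 at Cluster_20631.

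Reads of entries without a position lie outside the comparison. They made up 2.69%, 2.53% and 2.76% of the reads in the Express617 libraries and 5.83%, 6.01% and 5.11% in the G3D001 libraries, so that the groups did not overlap. No test was run on them.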

How the results depend on the processing

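Among the values of named clusters under alternatives, 437 kept their direction and their side of the threshold, 24 lost the call, 13 gained one and 7 changed sign. DESeq2 called 10229 clusters, 5566 of them higher in Express617, with 2404 of over 1000 to 3000 bp, 314 of over 3000 bp and 882 on C02. A minimum of 10 counts in 3 libraries, which leaves fewer clusters to test, gave 5409 higher in Express617 and 796 on C02. Without G3D001 replicate 2, 4584 clusters were higher in G3D001 both with DESeq2 and with that minimum, chosen after seeing the data. Leaving out single libraries gave 12043 to 18958 called clusters. Windows of 250 kb gave 23 past 2-fold, and a 1.5-fold threshold 124. There were 3 runs with windows of 1 Mb and 2 at 1.5-fold. The change between OS15 and OS30 had 47688 clusters with total-count scaling. The median position of G3D001 replicate 2 was 0.84 over clusters with a log2 fold change of at least 3, 0.768 over all called clusters and 0.70 as a mean over clusters of at least 20 counts. Apart from the fewer clusters tested, the cause was not tested.

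Among named clusters, the sign changed at uncalled, abundant ones only. Cluster_70434 had -0.057 with total-count scaling and -0.0057 with the minimum, and -0.043 to 0.050 with single libraries left out. Cluster_77054 had -0.11 to 1.98 and Cluster_75069 had -0.18 to 0.29 with single libraries left out.

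Replicate numbers were not taken to pair the libraries. Deviations from the genotype mean correlated at 0.09, 0.04 and 0.13 between libraries of equal number, and each library correlated best with its own number. Some of the most abundant clusters, such as Cluster_77054, rose with the replicate number in both parents, which the main fit counts as error. With the replicate block 14985 clusters were called, 8308 of them higher in Express617 and 6677 higher in G3D001. Uncalled clusters had a median of 5 reads per library, against 11 for clusters called higher in Express617 and 18 for those called higher in G3D001.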
